A study of Cervus nippon with 4 samples.

Results

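In the testis of Sika Deer, 200 genes were chosen by their measured levels as near 0 in the juvenile library and high at each later age. They were taken from the 629520 gene identifiers listed in any of the 4 mRNA libraries. Each library was made from RNA pooled from 3 animals of the Shuangyang breed. The animals were 1 year old in Tst_1 (juvenile), 3 years old in Tst_2 (adolescence), 5 years old in Tst_3 (adult) and 10 years old in Tst_4 (aged). No difference in treatment or genotype between the ages is recorded in the sources used here. With 1 pooled library per age no error or test can be given for any value.

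The level of a gene was given as FPKM, the fragments mapped to a gene divided by its length and by the size of the library, so that levels of different genes can be set side by side. A gene was kept when it had an FPKM below 1 in Tst_1, at least 5 in each of Tst_2, Tst_3 and Tst_4, and a largest later value less than 2 times the smallest. The kept genes were ranked by the smallest of their 3 later values, and the first 200 were taken. High later levels, low Tst_1 levels and similarity among the later libraries are therefore properties of the choice and not results. The gene lists pair no identifier with a gene name, so the labelled tissue could not be checked against cell type markers and the functions of these genes could not be read.

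As background, the testis before puberty holds mainly Sertoli cells, interstitial cells and early germ cells. With puberty, germ cells enter meiosis in large numbers, and the resulting spermatocytes and spermatids then form a large part of the tissue. Spermatids remodel into sperm with an acrosome, a condensed nucleus and a tail, and many genes for these structures are transcribed mainly in testis. None of these roles can be assigned to the genes described here. The paper states that germ cell types by stage have not been reported in Cervidae. It cites spermatocytes and spermatids in the juvenile testis of cattle. Whether the animals of Tst_1 had reached puberty was not examined here. In whole testis, fewer cells of a type and less RNA per cell cannot be told apart.

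Of all identifiers, 522278 had an FPKM below 1 in Tst_1 and 18071 reached 5 in each later library. Both conditions were met by 4377 genes, and 3634 of these also stayed under the ratio of 2. The 200 genes were thus the upper end of a longer list. The last of them had an FPKM of 117 in Tst_2, 98.5 in Tst_3 and 134 in Tst_4, whereas the first gene outside had 157, 123 and 97.0. At the limit in Tst_1, the highest value among the 200 genes was 0.98, and the lowest value outside, among genes steady at the same later level, was 1.02. At the limit on the ratio, the widest of the 200 had a largest value 1.99 times its smallest, and the narrowest of the 6 genes left out by this limit alone had 2.02 times.

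The median FPKM of the 200 genes was 0.09 in Tst_1 and 197, 167 and 206 in Tst_2, Tst_3 and Tst_4, by age. Their values ran from 0 to 0.98 in Tst_1, from 103 to 26561 in Tst_2, from 98.5 to 14666 in Tst_3 and from 103 to 25478 in Tst_4. Between the juvenile library and each later library the values did not overlap, as the rule requires. Most of the genes lay close together at the later ages: by the smallest of the 3 later values, 133 genes were below 200 FPKM, 54 from 200 to below 500, 8 from 500 to below 1000 and 5 at 1000 or above.

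**Figure D1:**
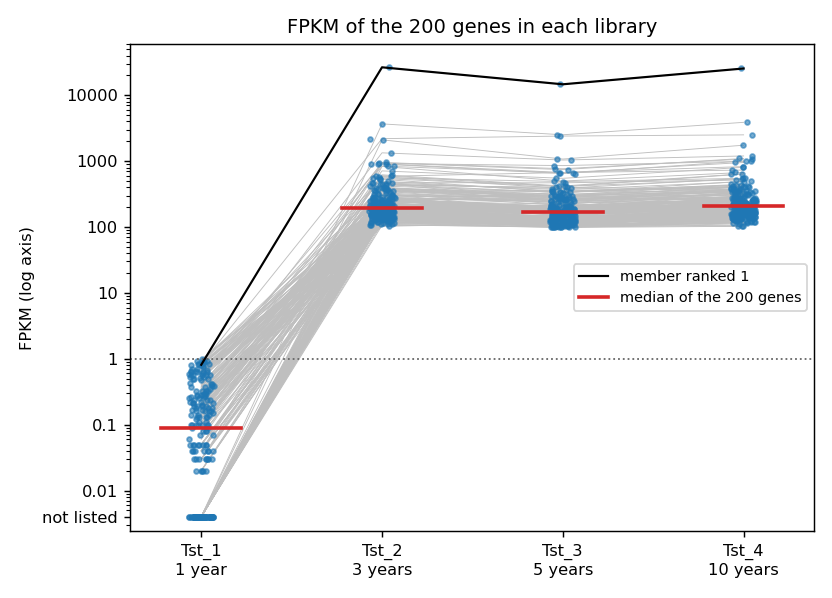
FPKM of each of the 200 genes (points, joined by grey lines) in the 4 libraries, on a log axis with genes missing from a list drawn at "not listed"; red bars are medians and the dotted line marks 1 FPKM. The medians are 0.09, 197, 167 and 206 from Tst_1 to Tst_4, and the gene ranked first (black) stands above all others in each later library.

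Because the 200 genes were ranked by later level, a large share of the later libraries follows from the choice. The shares are of summed FPKM and not of reads. Together they held 0.0046% of the summed FPKM of Tst_1, against 9.99%, 7.54% and 10.3% of the later libraries by age. The gene ranked first alone held 3.10%, 1.79% and 3.05% of the later libraries, and without it the other genes held 6.89%, 5.75% and 7.22%. Among the 10 genes of highest FPKM, 3 belonged to the 200 in each later library. Among the 100 highest, 32 did so in Tst_2, 28 in Tst_3 and 31 in Tst_4. All 200 lay within the first 1000 genes of each later library, and none lay within the first 1000 of Tst_1.

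The gene ranked first, c693433_g1, was at 0.81 FPKM in Tst_1 and at 26561, 14666 and 25478 FPKM in Tst_2, Tst_3 and Tst_4, in that order. Its level was close in Tst_2 and Tst_4 and was lowest among the later ages in Tst_3. The gene ranked second, c647507_g1, was not listed in Tst_1 and reached 3677, 2511 and 3881 FPKM in the later libraries. Tst_3 was thus the lowest later library for both genes, whereas the highest was Tst_2 for the first and Tst_4 for the other.

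The gene ranked 3 was at 0.83 FPKM in Tst_1 and at 2195, 2403 and 2506 FPKM in the later libraries by age. It was the only gene among the first 10 whose level in Tst_3 exceeded that in Tst_2. The gene ranked 4 was not listed in Tst_1 and had 2106, 1076 and 1745 FPKM later, which brought it close to the limit on the ratio. The gene ranked 5 was at 0.37 FPKM in the juvenile library and at 1337, 1039 and 1198 FPKM later. After the fifth rank the levels were lower and closer together.

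The gene ranked 6 had an FPKM of 0.52, 920, 856 and 993 in Tst_1 to Tst_4. For the gene ranked 7 the values were 0.28, 954, 767 and 1075 in the same order. The gene ranked 8 had 0.04, 946, 744 and 1099. All of these were lowest in Tst_3 and highest in Tst_4 among the later libraries. The gene ranked 9 had 0.13, 910, 672 and 826, with its highest level in Tst_2 instead. The gene ranked 10 had 0.26, 841, 665 and 955, and Tst_4 was again the highest.

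In the juvenile library the 200 genes were low, but most were not missing. A value was listed in Tst_1 for 135 of them, and 65 were missing from the list and treated as 0. Of the listed genes, 36 had an FPKM below 0.1, 65 from 0.1 to below 0.5 and 34 from 0.5 to below 1. The lowest listed value was 0.02 and the median of the listed values was 0.20. The read number behind these values is unknown, so a missing gene cannot be told apart from a gene with too few reads to be listed.

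For the 135 listed genes, the smallest later value was 115 to 18592 times the value in Tst_1, with a median of 907. The lowest fold belonged to the gene ranked 166, which had an FPKM of 0.98 in Tst_1 and 142, 113 and 140 in the later libraries. The highest belonged to the gene ranked 8. The fold was 1000 or more in 63 genes and under 200 in 9. No fold is given for the 65 genes not listed in Tst_1.

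The level in Tst_1 showed no steady order with the later level. In ranks 1 to 50, 15 genes were not listed in Tst_1, with 13 in ranks 51 to 100, 17 in ranks 101 to 150 and 20 in ranks 151 to 200. The median FPKM in Tst_1 was 0.105, 0.075, 0.15 and 0.045 in these 4 blocks, while the median of the smallest later value was 343, 186, 135 and 108. Spearman's rho of Tst_1 over the 200 genes was -0.00051 with Tst_2, 0.13 with Tst_3 and 0.057 with Tst_4. The points share the same libraries and gene lengths, and the rule keeps Tst_1 below 1 FPKM with 65 genes tied at 0, which limits these coefficients. Among the 3434 genes that met the rule after rank 200, 40.8% were not listed in Tst_1, against 32.5% of the 200.

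A total of 699 genes reached at least 98.5 FPKM, the level of the last of the 200, in each later library. Of these, 206 or 29.5% were below 1 FPKM in Tst_1, which are the 200 genes and the 6 that exceeded the ratio. A further 73 had from 1 to below 5 FPKM in Tst_1, 181 from 5 to below 50, 60 from 50 to below 98.5, and 179 were at 98.5 or above. Highly expressed genes of the later testis thus covered the whole range of juvenile levels, and the 200 genes lay at its lower end with no gap at the limit of 1.

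**Figure D2:**
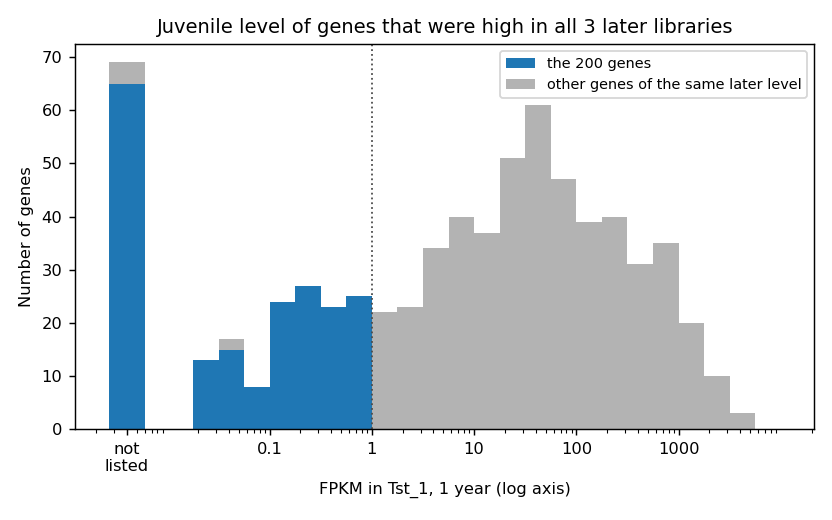
Number of genes by their FPKM in Tst_1 (log axis, genes missing from the list at "not listed"), for the 699 genes with at least 98.5 FPKM in each later library; blue bars are the 200 genes and grey bars the other 499. The dotted line marks the limit of 1 FPKM, below which 206 of the genes lie, 65 of the 200 being not listed.

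The comparison with the juvenile library asks how gene expression differs as the testis matures. For each pair of libraries, 0.1 was added to both FPKM values of a gene and the log2 ratio was taken. Genes with a ratio above 1 or below -1 were called, provided that either library held more than 0.3 FPKM. All 200 genes were called higher in Tst_2 vs. Tst_1, against 30.2% of the 321316 genes above 0.3 FPKM. They were likewise all called higher in Tst_3 vs. Tst_1, against 32.2%, and in Tst_4 vs. Tst_1, against 30.1%. The rule used these contrasts, which share Tst_1, so nothing is read from the counts.

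On the log2 scale with 0.1 FPKM added, which understates the difference where Tst_1 is low, the median ratios of the 200 genes over Tst_1 were 10.29, 9.99 and 10.26 for the later libraries by age. Over all genes above 0.3 FPKM the median ratios were -1.27, -0.99 and -1.45 in the same comparisons. Among the other 499 genes with the same later level they were 1.92, 1.83 and 1.95.

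Between the later libraries, none of the 200 genes was called, because the rule limits their ratio to less than 2. Over all genes above 0.3 FPKM, 51.9% were called in either direction in Tst_3 vs. Tst_2. The share was 51.6% in Tst_4 vs. Tst_3, and it was 51.8% for Tst_4 against Tst_2. These shares include genes barely above 0.3 FPKM, whereas the 200 genes were at 98.5 FPKM or more, so unlike levels are set side by side. Of the 206 genes at that later level and below 1 FPKM in Tst_1, only 6 exceeded the limit on the ratio. Of the 200 genes, 39 had a largest later value under 1.2 times the smallest, 111 from 1.2 to under 1.5 times, and 50 had 1.5 times or more. The narrowest was the gene ranked 27, which was not listed in Tst_1 and was at 340, 345 and 338 FPKM in the later libraries by age. The widest was the gene ranked 119, also not listed in Tst_1, with 146, 140 and 279 FPKM in the same order.

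Within that limit the adult library was most often the lowest of the later ages. Tst_3 held the lowest later value in 162 of the 200 genes, Tst_2 in 27 and Tst_4 in 11. The highest value was in Tst_4 for 111 genes, in Tst_2 for 78 and in Tst_3 for 11, but after scaling by trimmed-mean factors Tst_2 was the highest more often, in 106 genes against 93 for Tst_4. The most frequent order, in 91 genes, was Tst_3 below Tst_2 below Tst_4, and the next, in 71 genes, was Tst_3 below Tst_4 below Tst_2. The order Tst_2 below Tst_3 below Tst_4, a rise with each age, was found in 20 genes, and the opposite order in 7.

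In Tst_3 vs. Tst_2 the median log2 ratio of the 200 genes was -0.32, with 169 genes lower and 31 higher. In Tst_4 vs. Tst_3 it was 0.33, with 182 genes higher and 18 lower. In Tst_4 vs. Tst_2 it was 0.05, with 118 genes higher and 82 lower, and this small median was -0.021 after scaling by trimmed-mean factors. The comparisons share libraries, so a low value in Tst_3 enters both of the first 2. Over all genes above 0.3 FPKM the medians were 0.19, -0.19 and -0.08 as deposited. With trimmed-mean factors they were -0.17, 0.09 and -0.18, against -0.65, 0.59 and -0.021 for the 200 genes, and with median-of-ratios factors -0.046, 0.14 and 0.031, against -0.52, 0.62 and 0.14. With scaling to equal sums the medians over all genes were 0.27, -0.22 and -0.032, against -0.26, 0.30 and 0.092 for the 200 genes. The medians of the 200 genes and of all genes thus differed in sign as deposited and with equal sums. They had the same sign with trimmed-mean and with median-of-ratios factors.

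Among the other 499 genes of the same later level, to which the limit on the ratio did not apply, the median log2 ratio was -0.13 in Tst_3 vs. Tst_2 and 0.09 in Tst_4 vs. Tst_3, and it was -0.0007 for Tst_4 against Tst_2. Tst_3 held the lowest later value in 51.7% of them, against 81.0% of the 200 genes. Tst_4 held the highest in 38.5%, against 55.5%. Without replicate libraries these differences between the gene sets could not be tested, and the spread between animals of an age is not known. The trimmed-mean factors against Tst_1 were, as log2 values by age, -0.86, -0.53 and -0.78. After scaling by them Tst_3 was the lowest in 193 of the 200 genes, and after scaling by median-of-ratios factors in 190. A factor shifts every gene of a library alike, and the scaled count was not made for the other 499 genes. These higher counts are therefore not read as particular to the 200 genes.

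**Figure D3:**
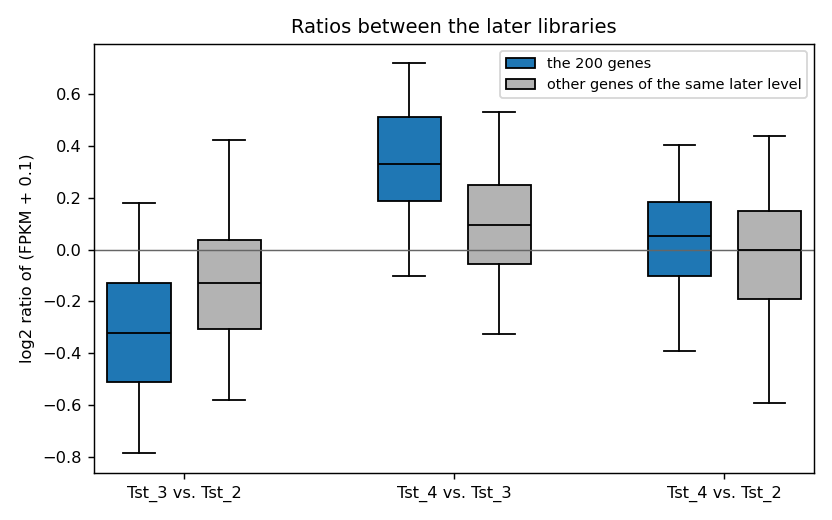
Log2 ratio of FPKM + 0.1 between pairs of later libraries for the 200 genes (blue) and the other 499 genes of the same later level (grey); boxes span the quartiles, the line is the median and whiskers reach the 5th and 95th percentiles. The blue medians are -0.32, 0.33 and 0.05 and the grey medians -0.13, 0.09 and -0.0007.

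The order of the genes by level was similar in the later libraries. Spearman's rho over the 200 genes was 0.874 between Tst_2 and Tst_3, 0.911 between Tst_3 and Tst_4 and 0.906 between Tst_2 and Tst_4. The limit on the ratio raises these values, and they are given without a test.

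To read the later level in a library that did not choose the genes, 200 genes were taken by the same limits from Tst_1 and only 2 of the later libraries. Chosen without Tst_2, all 200 had at least 5 FPKM in Tst_2, with a lowest value of 52.1 and a median of 203, and 194 kept all 3 later values within 2 times of each other. Chosen without Tst_3, all 200 had at least 5 FPKM in Tst_3, with a lowest value of 82.0 and a median of 167, and 192 stayed within 2 times. Chosen without Tst_4, all 200 again had at least 5 FPKM in Tst_4, with a lowest value of 30.9 and a median of 206, and 197 stayed within 2 times. These lists shared 190, 179 and 195 genes with the 200. The genes were at about 100 FPKM or more in the libraries that chose them, so the limit of 5 FPKM was low for them. Among genes of the same level with 1 FPKM or more in Tst_1, 100% also had at least 5 FPKM in the library left out. The share within 2 times was 98.6% of 500 such genes without Tst_2, 99.5% of 407 without Tst_3 and 98.6% of 516 without Tst_4, against 97.0%, 96.0% and 98.5% of the chosen genes. A steady later level was therefore not particular to genes near 0 in Tst_1.

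The same limits were applied with each other library as the low one. With Tst_1 low, 3634 genes qualified. With Tst_2 low there were 4 genes, with Tst_3 low 7 and with Tst_4 low 5, and the smallest of their other 3 values was between 5.12 and 9.40 FPKM. In the opposite direction and without a limit on the ratio, 3626 genes had at least 5 FPKM in Tst_1 and below 1 in each later library, against 4377 genes below 1 in Tst_1 and at least 5 in each later library. With 1 FPKM in place of 5, the genes high in Tst_1 alone were the more numerous, 58041 against 16015. At 98.5 FPKM they were 7 against 206, but that level was set by the gene ranked 200, so nothing is read from the last pair. The directions are not alike, since one asks for the level in 1 library and the other in 3. Genes of at least 1 FPKM in a single later library and below 1 in each other library were also many. They numbered 15659 for Tst_2, 21771 for Tst_3 and 17774 for Tst_4, and 322, 564 and 620 with 5 FPKM. Which direction was more frequent is therefore not read as a result.

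The identifiers have the form c693433_g1, in which several identifiers can share the first part. This is the naming used by the de novo assembler Trinity, where the prefix marks a cluster of related assembled sequences, although the assembler is not named in the sources used here. The rule made no use of the prefix. Reads from related sequences can be divided among the identifiers of a cluster, so single levels within a cluster are uncertain. Of the 200 genes, 152 or 76.0% shared their prefix with at least 1 other listed identifier. The share was 84.8% in the other 499 genes of the same later level and 31.0% over all identifiers.

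The 200 genes fell into 191 clusters, of which 183 held 1 of them, 7 held 2 and 1 held 3. The cluster with 3 held the genes ranked 16, 187 and 199. The gene ranked 16 had an FPKM of 0.15 in Tst_1 and 471, 469 and 520 in the later libraries. The gene ranked 187 was not listed in Tst_1 and had 124, 114 and 103. The gene ranked 199 had 0.05 in Tst_1 and 110, 98.6 and 103 later. Each of the 3 varied little across the later ages. The genes ranked 187 and 199 were at similar levels, and the gene ranked 16 was well above them.

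The genes ranked 42 and 43 shared a cluster and had almost equal levels, with 0.37, 262, 279 and 269 FPKM in Tst_1 to Tst_4 for the first and 0.32, 262, 264 and 286 for the other. The genes ranked 8 and 28 also shared a cluster. The gene ranked 28 had 0.03, 530, 337 and 407, so that Tst_4 lay below Tst_2, whereas for the gene ranked 8 Tst_4 lay above Tst_2. Members of a cluster could thus differ in the order of the later ages.

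A further 439 identifiers outside the 200 genes shared a prefix with them, in 142 clusters. Of these cluster mates, 198 or 45.1% were below 1 FPKM in all 4 libraries. The pattern of the 200 genes, below 1 FPKM in Tst_1 and at least 5 in each later library, was found in 60 or 13.7%. Over all 629520 identifiers it was met by 4377, including the 200 genes. Another 125 were below 1 FPKM in Tst_1 and reached 1 in some later library without meeting that pattern. The median FPKM of the mates was 0 in Tst_1 and 0.60, 0.70 and 0.55 in the later libraries by age.

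A level of at least 1 FPKM in Tst_1 was found in 56 mates, and 44 of the 200 genes had such a mate. In 14 mates the level was at least 1 FPKM in Tst_1 and more than 2 times higher in each later library. The highest of these by later level, a mate of the gene ranked 169, was at 14.2 FPKM in Tst_1 and at 604, 522 and 630 FPKM in the later libraries by age. Its later levels exceeded those of most of the 200 genes, and the value in Tst_1 kept it out.

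In 29 mates or 6.61% the order was the opposite, with at least 1 FPKM in Tst_1 and less than 0.5 times that value in each later library. Lower later levels were common, as the median log2 ratios over Tst_1 of all genes above 0.3 FPKM were -1.27, -0.99 and -1.45. For this class and for the 14 mates above, the share over all identifiers was not computed. The counts are therefore not read as a trait of these clusters. Highest in Tst_1 among the 29 mates was c683227_g2, which went from 54.0 FPKM in Tst_1 to 21.8, 18.1 and 14.5 FPKM in the later libraries by age. Its cluster also held the genes ranked 112 and 156, which were not listed in Tst_1. The gene ranked 112 had 236, 151 and 182 in the later libraries, and the gene ranked 156 had 233, 118 and 151. The next, c668578_g3, went from 41.5 FPKM in Tst_1 to 9.55, 12.6 and 10.5 FPKM later, and shared its prefix with the gene ranked 4. In these 2 clusters, identifiers that were lower after the juvenile stage stood beside identifiers that were not listed in Tst_1 and were high later. How such identifiers are related was not tested.

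**Figure D4:**
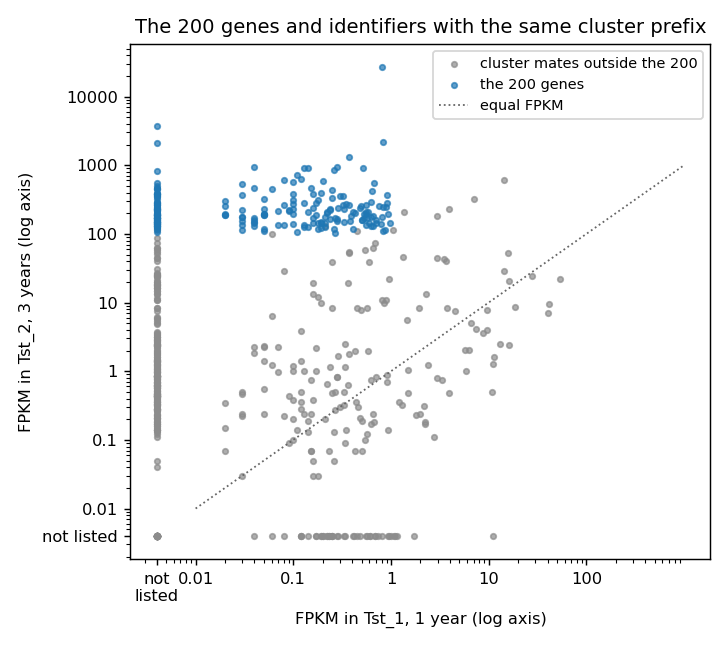
FPKM in Tst_2 against FPKM in Tst_1 (log axes, genes missing from a list at "not listed") for the 200 genes (blue) and the 439 cluster mates outside them (grey); the dotted line marks equal FPKM. The mates spread from not listed to 54.0 in Tst_1 and to 604 in Tst_2, on both sides of the line, whereas the 200 genes all lie above 100 in Tst_2 and below 1 in Tst_1.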

How the data were processed

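The authors pooled testis RNA of 3 animals per age, made 1 strand-marking mRNA library from each pool and sequenced it on an Illumina HiSeq2500. They deposited FPKM per gene identifier for each library, to 2 decimals and with a lowest value of 0.01. The sources used here do not name the assembler, aligner or counting program, and gene lengths and names were not used here, so no count model was fitted. The labels gave each library's age. The lists were joined on the identifier, and a missing gene was set to 0.

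Read totals were not used here. FPKM ratios of Tst_1 over each later library were read over genes with a geometric mean of 0.25 to 0.35 FPKM. The most frequent log2 ratio was 0.025 over Tst_2, -0.39 over Tst_3 and -0.31 over Tst_4, a view of relative depth only. A gene with the same few reads has a lower FPKM in the deeper library, so a negative ratio goes with greater depth in Tst_1. The paper likewise reports more clean reads for Tst_1 than for Tst_3 and Tst_4.

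The 200 genes, the lists and the limits were chosen with earlier results of these data known. The comparison with 499 genes of the same later level, the order of the later libraries, the genes set beside those chosen without a library, the scaled medians of all genes, the classes of cluster mates and the depth ratio were added after values had been seen. The identifiers named are the first 2 by rank and the 2 cluster mates highest in Tst_1 among those below 0.5 times that value in each later library, and other genes are given by rank. A list of testis cell type markers could not be applied without gene names. With a single library per age, no test was run. Alternatives changed the limits, the pseudocount, the low-value filter and the scaling. Trimmed-mean factors dropped 30% of the ratios and 5% of the levels from both tails, and median-of-ratios factors used 153596 genes found in all 4 libraries. The selection and the call were run on simulated data with 200 planted genes, which checks the code only. The simulated background held no genes near 0 in Tst_1, so nothing is read from it about the deposited lists. Calculations used Python 3.11.15, numpy 2.4.6, pandas 2.3.3 and matplotlib 3.10.9.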

Additional observations from a re-analysis of the deposited data

How the results depend on the processing

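A count was taken as moved when it differed by more than 1.5 times. The same factor was used for ratios, since no spread between replicates exists. Of 126 recomputed values, 92 stayed within that range, 33 moved and 1 changed sign. The counts of genes lowest in each later library were added after the values had been seen. No paired analysis was possible because the ages have single libraries. Depth limits the low values, since the reads behind an FPKM below 1 are unknown.

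The number of genes meeting the rule became 2169 with only genes listed in Tst_1, 1465 with only genes not listed there, 10859 with at least 1 FPKM in each later library, 2121 with at least 10 FPKM, and 2265 with a ratio under 1.5. With only genes not listed in Tst_1, 65 of the 200 genes were again among the first 200, and 135 to 200 were so under the other settings. All 200 genes remained called against Tst_1 under each pseudocount, filter and scaling tried. Between the later libraries, 0 genes were called as reported, whereas trimmed-mean and median-of-ratios factors gave 15 and 8 in Tst_3 vs. Tst_2 and 10 and 11 in Tst_4 vs. Tst_3, and median-of-ratios factors gave 1 in Tst_4 vs. Tst_2.

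With the same 2 factors, the genes lowest in Tst_2 became 5 and 9, those highest in Tst_3 became 1 and 1, and those lowest in Tst_4 became 2 and 1. The median log2 ratio in Tst_2 vs. Tst_1 was 11.55 with a pseudocount of 0.01, 7.45 with 1 and 11.14 with trimmed-mean factors. In Tst_3 vs. Tst_1 it was 11.37 and 7.20 with the pseudocounts, and in Tst_4 vs. Tst_1 it was 11.65, 7.51 and 11.05. In Tst_4 vs. Tst_2 it turned to -0.021 with trimmed-mean factors. The pseudocount moves these ratios because Tst_1 is near 0.

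With at least 1 FPKM in the other 3 libraries, 10859, 709, 429 and 1058 genes were low in Tst_1 to Tst_4, by age. At the level of the gene ranked 200 these numbers were 200, 0, 0 and 0, of which the first is fixed by the choice of that level, so the numbers are not compared.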

Other observations

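Below the first 200 genes, the list of genes near 0 in Tst_1 and steady later continued. The smallest later value was 98.5 FPKM in the gene ranked 200 and 97.0 FPKM in the first gene outside. Breaks in level further down were not examined. Of the 3634 genes meeting the rule, 2121 still met it when at least 10 FPKM was required in each later library. With a limit of 0.5 FPKM in Tst_1 in place of 1, 3029 genes met it, and 166 of the 200 genes were again among the first 200.

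The genes low in a single later library were few and of low level. In the 4 genes low in Tst_2, the value there was at most 0.76 FPKM, and in 2 of them the gene was not listed. In the 7 genes low in Tst_3, 6 were not listed in that library. All 5 genes low in Tst_4 were not listed in Tst_4. None of these genes exceeded 17.6 FPKM in any library. They had only to reach 5 FPKM in the other libraries, whereas the 200 genes were also ranked by later level. The levels of these sets are therefore not compared.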
